A study of Mus musculus with 16 samples.

Results

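The transcription factor ATF4 drives a set of genes that cells use when amino acids run short, and 38 of these genes were followed in mouse macrophages among the 54838 gene identifiers counted. They were taken from a list of gene symbols: regulators of the response, feedback and translation control genes, enzymes that make serine, glycine, asparagine, alanine and proline, amino acid transporters, and cytosolic tRNA synthetases with the tRNA exporter Xpot. All 38 were found in the annotation, and 37 had enough reads to be tested. Stc2, a secreted glycoprotein, had 0 or 1 read in each library and is given no fold change.

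When uncharged tRNAs accumulate, or when the endoplasmic reticulum is stressed, kinases phosphorylate the translation initiation factor eIF2. General protein synthesis then slows while the Atf4 mRNA is translated better, and ATF4 protein, often paired with a C/EBP family partner, switches on genes for amino acid synthesis, uptake and tRNA charging. The same response raises its own brakes, such as the phosphatase subunit encoded by Ppp1r15a and the pseudokinase Trib3. Activated macrophages are known to draw on serine and one-carbon metabolism for nucleotides, glutathione and methylation.

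The cells were bone marrow-derived macrophages grown with L929-cell-conditioned medium, a source of macrophage colony-stimulating factor. In all 4 groups they carried the B6.129P2-Apoetm1Unc/J genotype, which lacks the lipid carrier apolipoprotein E, with C57BL/6J given as the strain. One group had TMP195 at 5 µM for 1 h and then TNFα at 50 ng/ml for 24 h; TMP195 inhibits class IIa histone deacetylases. A second had TPCA-1, an inhibitor of IκB kinase β in the NF-κB pathway, at 500 nM for 1 h before the same TNFα. The third had TNFα without an inhibitor, and the fourth was DMSO, the vehicle. Stimulation was in serum-free medium, and each group had 4 libraries, numbered 1 to 4. Whether replicates are separate animals and whether the cells with TNFα alone also had DMSO are not given in the labels, so the p-values speak only of how far these libraries spread, which may be technical.

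The libraries held 7489066 to 31596572 reads counted on genes. TPCA-1+TNFα library 2 stood apart, with 7489066 counted reads and 44.0% of its reads unmapped, against 18562773 to 31596572 reads and 4.003% to 7.11% unmapped in the other 15. Macrophage markers were detected in all groups (7 of 7 genes, summed level 12261 to 25205 CPM, counts per 1e6 counted reads). The marker sums are not TMM-scaled, whereas the CPM of single genes below are. Of 7 neutrophil markers 4 were at 0 in all libraries, S100a9, Ly6g, Elane and Ngp, and Mpo had at most 3 reads in any library. The sum thus rests mainly on S100a8 and Camp. That summed level was 24.8 to 48.0 CPM in TMP195+TNFα, 13.8 to 41.4 in TPCA-1+TNFα, 46.6 to 85.0 in TNFα and 0.904 to 2.34 in DMSO libraries. The sum of 6 lymphocyte markers was 7.20 to 12.0 CPM with TMP195+TNFα, 26.5 to 62.3 with TPCA-1+TNFα, 14.9 to 31.9 with TNFα and 37.6 to 75.6 with DMSO. For 3 endothelial markers the sum was 4.30 to 7.04, 15.4 to 39.7, 4.04 to 7.53 and 8.01 to 11.2 CPM in the same groups, and dendritic cell, fibroblast, erythroid and mast cell markers summed to at most 1.61 CPM. The part of these markers in the results on the 38 genes was not tested. In bulk RNA, fewer cells of a type and less RNA per cell cannot be told apart.

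TMP195 given before TNFα raised 10 of the 37 tested genes over TNFα alone and lowered 0. These were Trib3 and Ddit3 among the regulators, Phgdh, Psat1 and Mthfd2 of serine and one-carbon metabolism, Asns and Gpt2, which make asparagine and alanine, the transporter subunit Slc3a2, and the synthetase genes Eprs and Cars. Of all 12612 genes tested, 2.95% were higher in this comparison and 3% lower, by edgeR's quasi-likelihood test with a Benjamini-Hochberg adjusted p under 0.05. The median log2 fold change was 0.42 over the 37 genes and 0.02 over all genes, and 35 of the 37 fold changes were above 0. Libraries with the same number deviated together in these groups. With the replicate number as a block in a fit of all 16 libraries, 22 of the 37 genes passed, with 0 lower, against 6.91% of all genes higher. Where no other fit is named, a gene passed or did not pass in the fit of all 4 groups without the block. Fold changes throughout are log2 values with their standard error (SE) after ±, the group named first over the second.

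TPCA-1 given before TNFα raised 4 genes over TNFα alone, Atf3, Ddit4, Trib3 and Ppp1r15a, and lowered 1, the threonyl-tRNA synthetase gene Tars. The background was 9.67% of all genes higher and 9.72% lower, beside 10.8% of the 37 genes higher. The median was 0.29 over the 37 genes and 0.02 over all genes. The genes for serine, asparagine, alanine and proline synthesis were not among those called, and the 2 inhibitors were therefore also compared directly. TMP195+TNFα was higher than TPCA-1+TNFα for 10 genes, with 13.1% of all genes higher. These were Cebpg, Phgdh, Psat1, Mthfd2, Asns, Gpt2, Slc3a2, Eprs, Tars and Xpot. It was lower for 2, Ddit4 and Atf3, with 12.6% of all genes lower.

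TNFα alone raised 9 of the 37 genes over DMSO, where 10.9% of all genes were higher, and lowered 0, where 12.4% were lower. The 9 were Atf4, Nupr1, Ppp1r15a, Eif4ebp1, Mthfd2, Slc3a2, Eprs, Tars and Iars. The median was 0.22 over the 37 genes, and 29 of the 37 fold changes were above 0. With the replicate block 13 passed as higher, Slc7a5, Aars, Nars and Lars being added, and 1, Ddit3, as lower, against 15.1% and 16.9% of all genes. Over DMSO, TMP195+TNFα was higher for 27 genes, with 13.6% of all genes higher, and lower for 0, with 13.9% lower; the replicate block added Aldh18a1, Pycr1, Slc38a2 and Xpot. TPCA-1+TNFα was higher than DMSO for 18, with 14.8% of all genes higher, and lower for 0, with 15.5% lower. The 3 comparisons with DMSO share the DMSO libraries, and both comparisons with TNFα share the TNFα libraries, so their counts are not independent. DESeq2 called 0 of the 37 genes lower in the comparisons in which edgeR called 0, and at an unadjusted p under 0.05 edgeR had 1 lower with TNFα over DMSO, Ddit3, and 1 with TPCA-1+TNFα over DMSO, Psat1. The map of fold changes shows all 6 comparisons gene by gene.

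**Figure D1:**
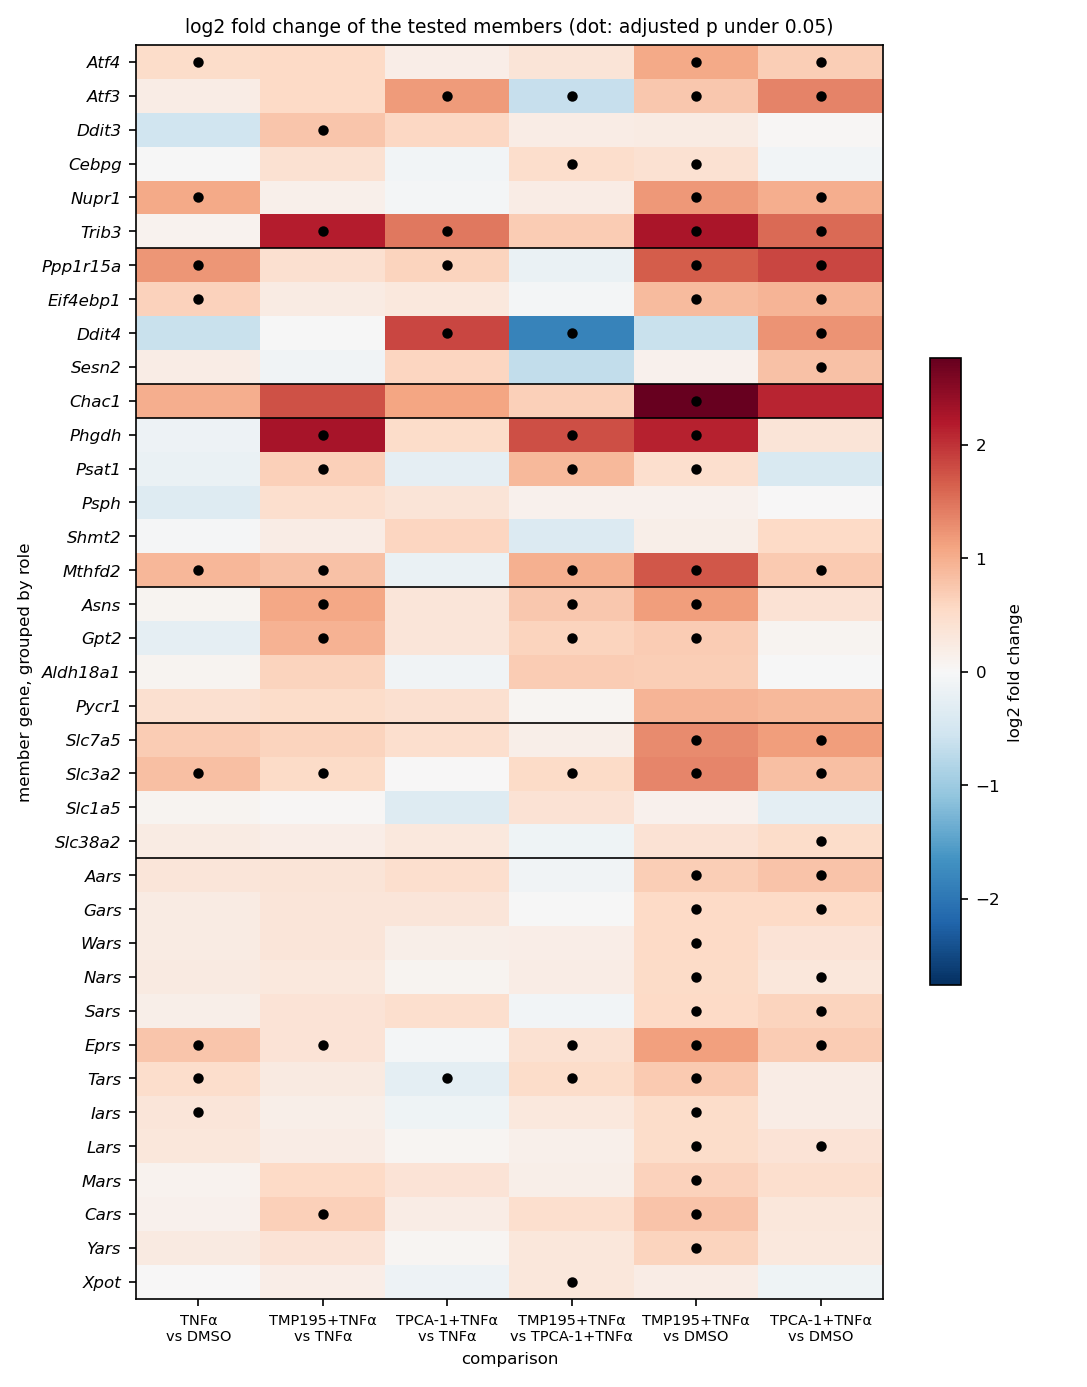
Log2 fold change (colour) of the 37 tested genes (rows, grouped by role) in 6 comparisons (columns), the group named first over the second; a dot marks an edgeR adjusted p under 0.05. TMP195+TNFα over DMSO has 27 dots, of which 12 are in the bottom group of 13 synthetase and tRNA export genes; TPCA-1+TNFα over TNFα has 5 dots.

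The promoters of these genes were searched for the C/EBP-ATF composite element, which ATF4 is known to bind with a C/EBP partner. The motif was TGATGNAA or its reverse complement TTNCATCA, either of them read along the gene's strand so that both strands were searched, in the 300 bases that run from 250 before to 50 after each RefSeq start (GRCm38.p6). Of the 38 genes, 30 matched the promoter table by symbol, while Eif4ebp1, Slc7a5, Slc1a5, Wars, Nars, Lars, Mars and Cars did not. The motif was found for 11 of the 30 genes (36.7%), against 2.89% of the 9289 tested genes that matched and 4.51% of all 27025 genes of the table. Since the genes were chosen as part of the ATF4 response, these shares describe the list and are not a test. Below are 11 of the 12 matches with 10 bases on each side, written 5′ to 3′ along the gene's strand with the 8 matching bases in capitals, because they are what these promoters share.
Aars chr8:111033841-111033868 (plus strand): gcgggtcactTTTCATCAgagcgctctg
Asns chr6:7693215-7693242 (minus strand): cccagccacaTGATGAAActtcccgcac
Atf3 chr1:191183426-191183453 (minus strand): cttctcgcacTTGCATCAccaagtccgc
Chac1 chr2:119351039-119351066 (plus strand): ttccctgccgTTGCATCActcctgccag
Gars chr6:55037961-55037988 (plus strand): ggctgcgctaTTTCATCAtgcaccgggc
Iars chr13:49682127-49682154 (plus strand): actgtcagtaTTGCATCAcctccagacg
Nupr1 chr7:126625563-126625590 (minus strand): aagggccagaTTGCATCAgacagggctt
Pycr1 chr11:120643834-120643861 (minus strand): gccctgtgtaTGATGCAAtgcacaaggc
Tars chr15:11399656-11399683 (minus strand): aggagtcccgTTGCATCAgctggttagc
Trib3 chr2:152344029-152344056 (minus strand): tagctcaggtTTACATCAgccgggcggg
Yars chr4:129189896-129189923 (plus strand): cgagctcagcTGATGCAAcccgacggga
Read along 1 strand, 8 of the 12 matches were TGATGCAA, 3 were TGATGAAA and 1, in Trib3, was TGATGTAA. The match began 23 bases before the start in Asns and 110 before it in Atf3 and in Nupr1, whereas 4 matches, in Aars, Iars, Trib3 and Yars, lay after the RefSeq start. The match not shown is also in Aars, is of the TGATGCAA form and began 112 bases before the start. No other motif was searched. A match describes letters in a window and says nothing of binding in these cells.

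The 250 bases before the start are shown for Asns, which was higher with TMP195, and for Atf3, which was higher with TPCA-1, with the match in capitals. Both are on the minus strand and are written along the gene.
Asns chr6:7693210-7693459 (minus strand): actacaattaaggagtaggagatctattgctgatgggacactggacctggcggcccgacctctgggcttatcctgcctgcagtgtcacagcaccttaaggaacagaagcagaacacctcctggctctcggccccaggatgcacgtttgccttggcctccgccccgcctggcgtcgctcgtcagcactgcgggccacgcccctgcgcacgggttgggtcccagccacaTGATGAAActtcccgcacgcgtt
Atf3 chr1:191183334-191183583 (minus strand): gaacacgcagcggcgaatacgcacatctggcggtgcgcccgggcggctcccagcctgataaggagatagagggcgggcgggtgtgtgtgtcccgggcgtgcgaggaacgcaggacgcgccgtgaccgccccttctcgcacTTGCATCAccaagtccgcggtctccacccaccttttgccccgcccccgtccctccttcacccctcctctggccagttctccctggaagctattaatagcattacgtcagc
Against DMSO, TMP195+TNFα was higher for 10 of the 11 genes with the motif and for 10 of the 18 tested genes without it. Against TNFα alone these counts were 2 of 11 and 7 of 18, with medians of 0.37 and 0.46. The 2 with the motif were Trib3 and Asns, and the 7 without it were Phgdh, Psat1, Mthfd2, Gpt2, Ddit3, Slc3a2 and Eprs. With TPCA-1 over TNFα, 2 of 11 genes with the motif rose and 1 fell, and 2 of 18 without it rose. Of all tested genes, 13.6% were higher with TMP195+TNFα over DMSO and 2.95% over TNFα. With TPCA-1 over TNFα 9.67% were higher and 9.72% lower. A link between the motif and these changes was not tested.

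Among the regulators, Atf4 itself was measured at the RNA level, whereas the protein is controlled mainly at translation. Atf4 had 347, 365, 322 and 431 CPM in the TMP195+TNFα libraries, 234, 305, 229 and 379 in the TPCA-1+TNFα libraries, 234, 244, 229 and 298 in the TNFα libraries and 166, 213, 136 and 197 in the DMSO libraries. All TMP195+TNFα libraries lay above all TNFα libraries, and all TNFα libraries lay above those with DMSO. TNFα raised Atf4 over DMSO (0.50 ± 0.17, edgeR adjusted p = 0.0378). With TMP195 the step over TNFα was of like size (0.54 ± 0.17, edgeR adjusted p = 0.0634). It did not pass in the fit of all groups, and it passed with the replicate block (adjusted p = 0.00132), with DESeq2, with no low-count filter and with only the 2 groups fitted. TMP195+TNFα was higher than DMSO by 1.04 ± 0.17 (edgeR adjusted p = 0.000137), and TPCA-1+TNFα by 0.69 ± 0.17 (edgeR adjusted p = 0.00463).

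Trib3, a pseudokinase that restrains ATF4 and AKT signalling (GRCm38 chr2:152337422-152344032, minus strand), had the second largest change with TMP195. Trib3 had 8.46, 8.16, 6.77 and 19.0 CPM in the TMP195+TNFα libraries, 2.93, 9.73, 2.87 and 11.4 in the TPCA-1+TNFα libraries, 1.65, 2.16, 1.61 and 4.15 in the TNFα libraries and 2.00, 3.01, 1.25 and 2.65 in the DMSO libraries. The 4 TMP195+TNFα libraries did not overlap the TNFα libraries, and library 4 was far above the rest of its group. Mean levels were 10.6 ± 5.67 CPM with TMP195+TNFα and 2.39 ± 1.20 CPM with TNFα (SD, n = 4 each), and the fold change was 2.16 ± 0.48 (edgeR adjusted p = 0.012). With TPCA-1 the libraries split, with 2 and 4 high and 1 and 3 near the TNFα level (1.47 ± 0.48, edgeR adjusted p = 0.0418). Without TPCA-1+TNFα library 4 the adjusted p was 0.203. TMP195+TNFα over TPCA-1+TNFα did not pass (0.69 ± 0.45, edgeR adjusted p = 0.275).

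Ddit3, which encodes the stress factor CHOP, overlaps Mars on the opposite strand, and reads were counted on the gene's own strand. Another annotation entry named Ddit3 overlaps it on the same strand, which counting by strand does not separate. The part of that entry in the counts was not tested. Ddit3 had 53.0, 59.6, 52.4 and 62.6 CPM in the TMP195+TNFα libraries, 35.8, 66.2, 30.2 and 65.5 in the TPCA-1+TNFα libraries, 31.5, 32.3, 33.8 and 35.3 in the TNFα libraries and 49.7, 58.2, 44.5 and 40.9 in the DMSO libraries. TNFα libraries lay below all DMSO libraries, although the difference did not pass in the fit of all groups (-0.54 ± 0.20, edgeR adjusted p = 0.0628). It passed with the replicate block (adjusted p = 0.0256), with no low-count filter, with only the 2 groups fitted and without TPCA-1+TNFα library 2. TMP195+TNFα was above TNFα in all libraries (0.78 ± 0.20, edgeR adjusted p = 0.0295) and overlapped DMSO (0.24 ± 0.20, edgeR adjusted p = 0.443). TPCA-1+TNFα libraries 2 and 4 stood at 66.2 and 65.5 CPM while 1 and 3 stayed near the TNFα level. TPCA-1+TNFα over TNFα did not pass in the fit of all groups. It passed as higher with the replicate block, with DESeq2, with no low-count filter and without TPCA-1+TNFα library 1 or 3.

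Atf3 encodes a stress-induced repressor and activator of the same family. Atf3 had 280.2, 376, 348 and 359 CPM in the TMP195+TNFα libraries, 352, 639, 404 and 713 in the TPCA-1+TNFα libraries, 193, 245, 241 and 258 in the TNFα libraries and 179.6, 223, 194 and 219 in the DMSO libraries. It was higher with TPCA-1+TNFα than with TNFα (1.17 ± 0.19, edgeR adjusted p = 0.000247) and lower with TMP195+TNFα than with TPCA-1+TNFα (-0.63 ± 0.18, edgeR adjusted p = 0.018), where the groups overlapped. TMP195+TNFα lay above TNFα in all libraries without passing (0.54 ± 0.18, edgeR adjusted p = 0.0963); with the replicate block the adjusted p was 0.0062. TNFα over DMSO did not pass (0.20 ± 0.18, edgeR adjusted p = 0.504).

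Cebpg encodes a C/EBP partner of ATF4. Cebpg had 30.5, 29.3, 28.1 and 24.2 CPM in the TMP195+TNFα libraries, 21.3, 20.7, 16.9 and 21.1 in the TPCA-1+TNFα libraries, 24.2, 21.3, 20.8 and 17.4 in the TNFα libraries and 20.01, 24.7, 21.8 and 17.2 in the DMSO libraries. Its level with TMP195+TNFα was above TPCA-1+TNFα in all libraries (0.49 ± 0.13, edgeR adjusted p = 0.0112). Against TNFα the groups met at 24.2 CPM without crossing, and the fold change was 0.42 ± 0.13 (edgeR adjusted p = 0.0661), with an adjusted p of 0.0159 under the replicate block. It was the only regulator whose TMP195+TNFα library 4 was the lowest of its group.

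Nupr1, a small stress-induced chromatin protein, was higher in all 3 groups with TNFα. Nupr1 had 34.0, 22.4, 30.6 and 36.7 CPM in the TMP195+TNFα libraries, 22.7, 23.2, 24.5 and 37.1 in the TPCA-1+TNFα libraries, 25.3, 22.1, 28.0 and 36.7 in the TNFα libraries and 11.2, 13.5, 11.7 and 17.5 in the DMSO libraries. All TNFα libraries, with or without an inhibitor, lay above those with DMSO, and TNFα over DMSO gave 1.06 ± 0.20 (edgeR adjusted p = 0.000872). Over TNFα the fold change was 0.14 ± 0.20 (edgeR adjusted p = 0.817) with TMP195 and -0.05 ± 0.20 (edgeR adjusted p = 0.872) with TPCA-1, and both groups overlapped TNFα.

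Of the 4 feedback and translation control genes, 0 passed edgeR's test with TMP195 over TNFα, with 1 at an unadjusted p under 0.05, and 2 rose with TPCA-1. The shares of all genes higher were 2.95% and 9.67%. With the replicate block 1 rose with TMP195 and 3 with TPCA-1, against 6.91% and 15.8% of all genes. Ppp1r15a encodes GADD34, the phosphatase subunit that reverses eIF2 phosphorylation. Ppp1r15a had 34.0, 48.4, 44.7 and 62.1 CPM in the TMP195+TNFα libraries, 37.2, 74.9, 43.4 and 59.6 in the TPCA-1+TNFα libraries, 29.8, 34.3, 32.5 and 42.7 in the TNFα libraries and 13.9, 16.3, 12.7 and 17.0 in the DMSO libraries. TNFα raised it over DMSO in all libraries (1.22 ± 0.21, edgeR adjusted p = 0.000303). TPCA-1 gave 0.62 ± 0.20 (edgeR adjusted p = 0.0424) over TNFα, with overlapping groups, and TMP195 gave 0.44 ± 0.20 (edgeR adjusted p = 0.248), or 0.0328 with the replicate block.

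Ddit4 encodes REDD1, an inhibitor of the growth kinase complex mTORC1. Ddit4 had 0.764, 1.08, 0.688 and 1.61 CPM in the TMP195+TNFα libraries, 2.64, 6.22, 2.48 and 4.33 in the TPCA-1+TNFα libraries, 0.852, 1.18, 1.18 and 0.965 in the TNFα libraries and 0.841, 1.33, 1.70 and 2.55 in the DMSO libraries. Its TPCA-1+TNFα libraries lay above all TMP195+TNFα and all TNFα libraries. The fold change of TPCA-1+TNFα over TNFα was 1.84 ± 0.36 (edgeR adjusted p = 0.00155), and that of TMP195+TNFα over TPCA-1+TNFα was -1.84 ± 0.36 (edgeR adjusted p = 0.00116). TNFα overlapped DMSO (-0.61 ± 0.37, edgeR adjusted p = 0.277). Outside the TPCA-1 group these levels rest on 13 to 49 reads per library.

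Eif4ebp1, which encodes a repressor of cap-dependent translation, was higher with TNFα than with DMSO. Eif4ebp1 had 130.3, 121, 150.1 and 232 CPM in the TMP195+TNFα libraries, 123, 192, 164 and 183 in the TPCA-1+TNFα libraries, 113, 109, 134 and 185 in the TNFα libraries and 80.8, 84.7, 67.4 and 114 in the DMSO libraries. Both inhibitor groups overlapped TNFα, and TNFα over DMSO gave 0.64 ± 0.22 (edgeR adjusted p = 0.0439), with TNFα libraries 1 and 2 below DMSO library 4. Sesn2, a leucine sensor of the mTORC1 pathway, ranged over 15.0 to 33.3 CPM with TMP195+TNFα, 26.4 to 39.5 with TPCA-1+TNFα, 17.6 to 31.0 with TNFα and 13.6 to 28.2 with DMSO. In the fit of all groups it passed only with TPCA-1+TNFα over DMSO (0.81 ± 0.27, edgeR adjusted p = 0.0323), and DESeq2 also called it lower with TMP195+TNFα than with TPCA-1+TNFα. With the replicate block Sesn2 was also higher with TPCA-1+TNFα than with TNFα or TMP195+TNFα.

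**Figure D2:**
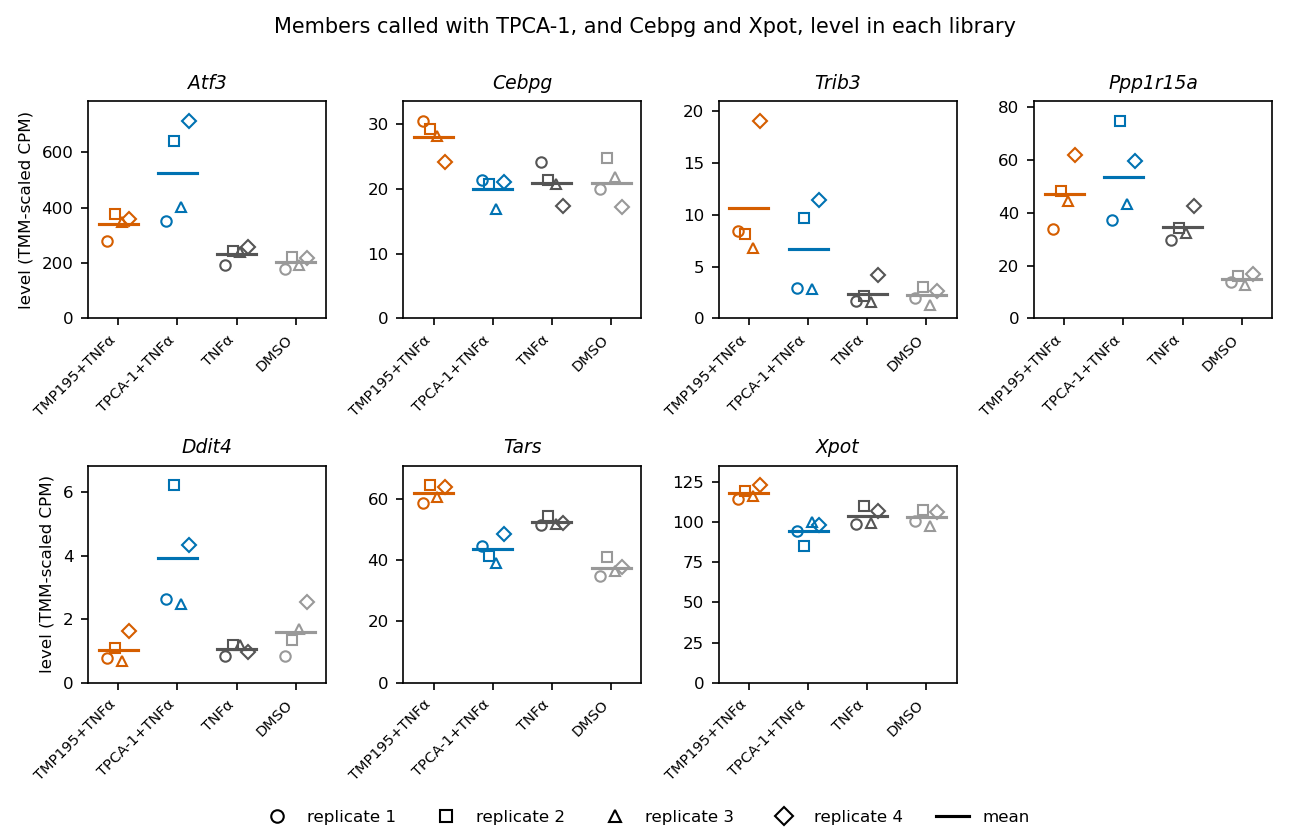
Level in each library (TMM-scaled CPM, linear axis from 0) of the 5 genes called between TPCA-1+TNFα and TNFα, with Cebpg and Xpot, by group; symbols give the replicate number and bars the group mean. Atf3 and Ddit4 have their highest group mean with TPCA-1+TNFα, whose libraries 2 and 4 lie above libraries 1 and 3 for Atf3, Trib3, Ppp1r15a and Ddit4, while Cebpg, Tars and Xpot are higher in each TMP195+TNFα library than in each TPCA-1+TNFα library.

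Chac1, an enzyme that degrades glutathione and a sensitive marker of the response, was low in all groups. It had 2.84, 1.45, 2.70 and 8.24 CPM with TMP195+TNFα, 1.17, 2.57, 0.446 and 5.59 with TPCA-1+TNFα, 0.398, 0.540, 0.756 and 2.85 with TNFα and 0.525, 0.493, 0.313 and 0.936 with DMSO. Library 4 was the highest in each group. TMP195+TNFα over DMSO passed (2.76 ± 0.76, edgeR adjusted p = 0.0109) with no overlap, while TMP195+TNFα over TNFα was 1.75 ± 0.69 (edgeR adjusted p = 0.159), and the replicate block gave 0.00367.

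Of the 5 serine and one-carbon genes, 3 rose with TMP195 over TNFα, and 0 passed edgeR's test with TPCA-1, with 1, Shmt2, at an unadjusted p under 0.05. The shares of all genes higher were 2.95% and 9.67%. Phgdh encodes the first enzyme of serine synthesis (GRCm38 chr3:98313170-98339990, minus strand). Phgdh had 4.26, 2.91, 3.01 and 9.09 CPM in the TMP195+TNFα libraries, 0.391, 2.43, 0.198 and 3.01 in the TPCA-1+TNFα libraries, 0.739, 0.785, 0.822 and 1.64 in the TNFα libraries and 0.630, 1.68, 0.760 and 1.35 in the DMSO libraries. The TMP195+TNFα libraries lay above all TNFα and DMSO libraries, and the TPCA-1+TNFα libraries split into 0.198 and 0.391 CPM in libraries 3 and 1 and 2.43 and 3.01 CPM in libraries 2 and 4. TMP195 gave the largest fold change of the 37 genes over TNFα (2.28 ± 0.59, edgeR adjusted p = 0.03), and over TPCA-1+TNFα it gave 1.77 ± 0.60 (edgeR adjusted p = 0.0368). The TNFα levels rest on 13 to 34 reads per library.

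Psat1 encodes the aminotransferase of the second step of serine synthesis (GRCm38 chr19:15904678-15947337, minus strand). Psat1 had 17.0, 21.05, 16.1 and 27.4 CPM in the TMP195+TNFα libraries, 8.70, 10.8, 10.3 and 13.8 in the TPCA-1+TNFα libraries, 11.9, 12.8, 12.6 and 14.7 in the TNFα libraries and 13.2, 17.3, 14.5 and 13.8 in the DMSO libraries. All TMP195+TNFα libraries exceeded all TPCA-1+TNFα and TNFα libraries. The fold change was 0.65 ± 0.17 (edgeR adjusted p = 0.0292) over TNFα and 0.90 ± 0.17 (edgeR adjusted p = 0.000959) over TPCA-1+TNFα. Psph, the phosphatase of the last step, did not pass in any of the 6 comparisons and ranged over 5.16 to 7.31 CPM with TMP195+TNFα, 3.86 to 8.24 with TPCA-1+TNFα, 3.52 to 5.45 with TNFα and 4.78 to 6.55 with DMSO.

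Mthfd2, the mitochondrial folate enzyme that processes units derived from serine (GRCm38 chr6:83305691-83325908, minus strand), was the gene of this group that both TNFα and TMP195 raised. Mthfd2 had 91.4, 88.3, 86.5 and 122 CPM in the TMP195+TNFα libraries, 36.2, 59.5, 35.9 and 64.6 in the TPCA-1+TNFα libraries, 48.0, 57.3, 54.6 and 63.1 in the TNFα libraries and 27.9, 37.8, 22.9 and 30.1 in the DMSO libraries. TMP195+TNFα, TNFα and DMSO formed 3 ranges with no overlap. TNFα over DMSO was 0.91 ± 0.20 (edgeR adjusted p = 0.00221), and TMP195+TNFα over TNFα was 0.80 ± 0.19 (edgeR adjusted p = 0.0198). TPCA-1+TNFα did not pass against TNFα (-0.19 ± 0.20, edgeR adjusted p = 0.519) and lay below TMP195+TNFα in all libraries (0.99 ± 0.20, edgeR adjusted p = 0.00127). Shmt2, the mitochondrial serine hydroxymethyltransferase, passed in none of the 6 comparisons, with 18.6 to 37.1 CPM with TMP195+TNFα, 24.1 to 36.2 with TPCA-1+TNFα, 16.8 to 27.7 with TNFα and 17.4 to 27.6 with DMSO. With the replicate block Shmt2 was called higher with TPCA-1+TNFα than with each of the other groups.

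Asns encodes asparagine synthetase, a classic ATF4 target (GRCm38 chr6:7675169-7693254, minus strand). Asns had 88.9, 88.4, 71.0 and 123 CPM in the TMP195+TNFα libraries, 39.8, 74.2, 34.5 and 75.0 in the TPCA-1+TNFα libraries, 36.7, 53.7, 37.6 and 49.2 in the TNFα libraries and 38.1, 51.4, 36.0 and 42.3 in the DMSO libraries. TMP195+TNFα lay above TNFα in all libraries, by 1.07 ± 0.24 (edgeR adjusted p = 0.0123), a fold of 2.10. Over TPCA-1+TNFα it was 0.74 ± 0.24 (edgeR adjusted p = 0.0285), with TPCA-1 libraries 2 and 4 above TMP195 library 3. TNFα alone did not pass against DMSO (0.08 ± 0.24, edgeR adjusted p = 0.864).

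Gpt2 encodes the mitochondrial alanine aminotransferase (GRCm38 chr8:85492576-85527560, plus strand). Gpt2 had 14.0, 11.8, 12.7 and 18.5 CPM in the TMP195+TNFα libraries, 7.67, 9.86, 7.28 and 12.4 in the TPCA-1+TNFα libraries, 6.48, 6.23, 7.92 and 8.69 in the TNFα libraries and 9.35, 8.72, 9.03 and 8.01 in the DMSO libraries. TMP195+TNFα exceeded both TNFα and DMSO in all libraries, with 0.96 ± 0.18 (edgeR adjusted p = 0.00462) over TNFα and 0.70 ± 0.18 (edgeR adjusted p = 0.00706) over DMSO. Over TPCA-1+TNFα it was 0.62 ± 0.18 (edgeR adjusted p = 0.0187), with overlap. The proline synthesis genes did not pass over TNFα: Aldh18a1 had 22.0, 19.2, 22.5 and 39.4 CPM with TMP195+TNFα and 11.6, 15.2, 16.5 and 24.6 with TNFα (0.60 ± 0.27, edgeR adjusted p = 0.234, and 0.00967 with the replicate block). Pycr1 was at 1.69 to 2.93 CPM with TMP195+TNFα and 0.796 to 2.17 with TNFα (0.50 ± 0.36, edgeR adjusted p = 0.541).

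**Figure D3:**
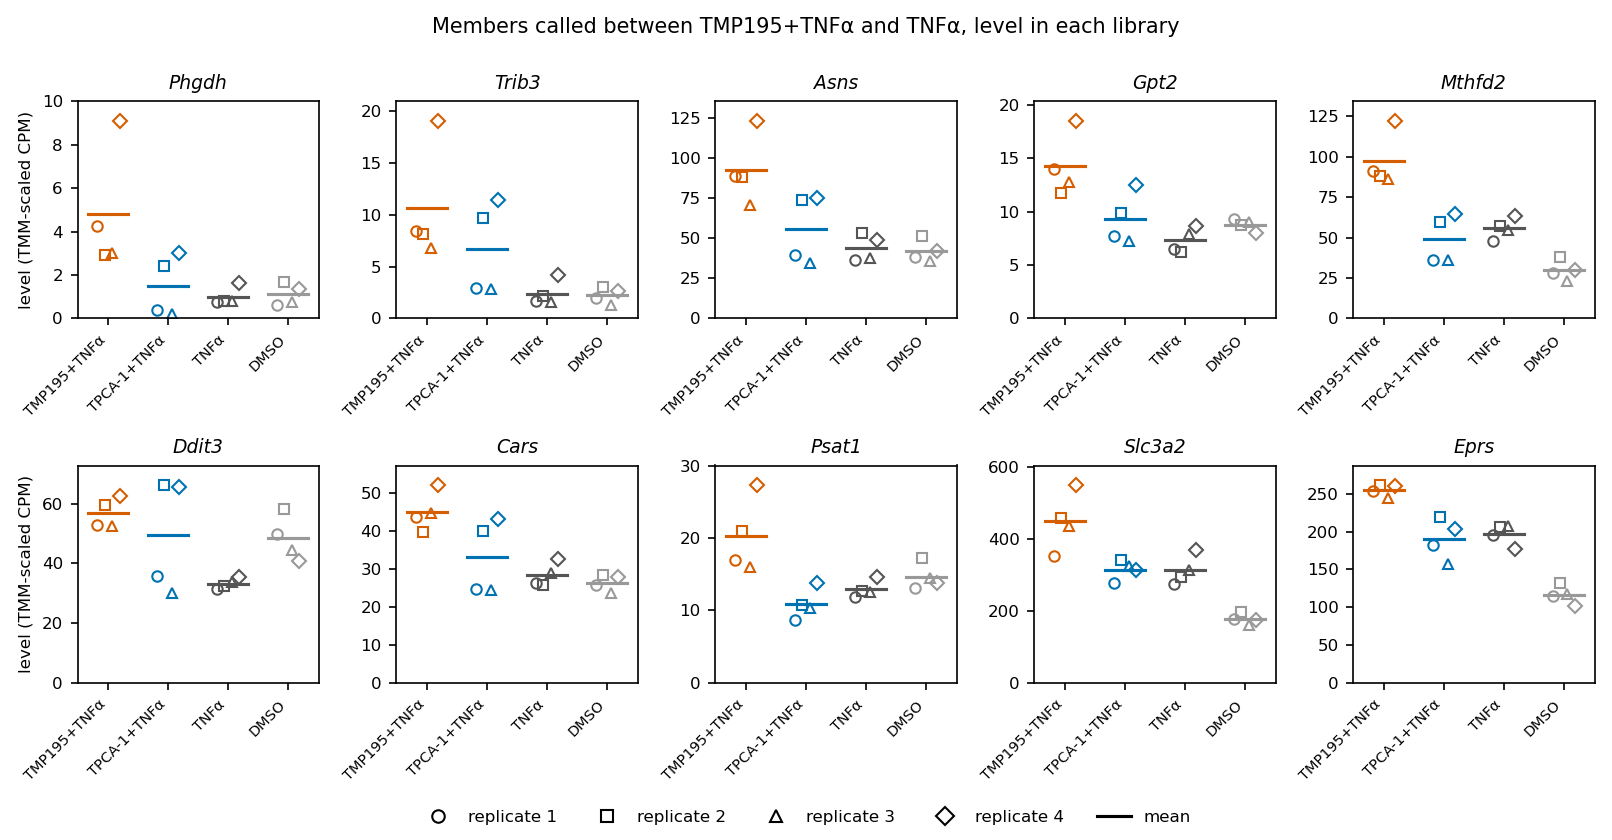
Level in each library (TMM-scaled CPM, linear axis from 0) of the 10 genes called between TMP195+TNFα and TNFα, by group; symbols give the replicate number and bars the group mean. Every TMP195+TNFα library lies above every TNFα library in 9 of the 10 panels, Slc3a2 being the exception. These genes were picked by their call in this same comparison. Among all 37 tested genes of the list the groups were separated in this way for 19, against 8.03% of all tested genes. The TPCA-1+TNFα libraries spread widely for Phgdh, Trib3, Asns and Ddit3.

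Among the 4 transporters, Slc3a2 encodes the heavy chain that carries SLC7A5 and SLC7A11 to the membrane. Slc3a2 had 352, 460.3, 438 and 550.3 CPM in the TMP195+TNFα libraries, 277, 343, 324 and 314 in the TPCA-1+TNFα libraries, 275, 293, 314 and 369.7 in the TNFα libraries and 176, 196, 159.9 and 175 in the DMSO libraries. TNFα raised it over DMSO (0.83 ± 0.13, edgeR adjusted p = 0.000115), and TMP195 raised it further (0.52 ± 0.13, edgeR adjusted p = 0.0203), TMP195 library 1 lying within the TNFα range. TPCA-1+TNFα over TNFα did not pass (0.01 ± 0.13, edgeR adjusted p = 0.981) and lay below TMP195+TNFα in all libraries (0.52 ± 0.13, edgeR adjusted p = 0.0062). Its partner Slc7a5, which imports leucine, had 20.7, 17.1, 20.8 and 47.3 CPM with TMP195+TNFα, 12.4, 30.4, 16.7 and 36.6 with TPCA-1+TNFα, 12.0, 19.4, 14.2 and 23.6 with TNFα and 8.41, 11.7, 6.57 and 16.2 with DMSO. It passed over DMSO with TMP195+TNFα (1.31 ± 0.38, edgeR adjusted p = 0.0151) and with TPCA-1+TNFα (1.16 ± 0.38, edgeR adjusted p = 0.0293), and over TNFα with neither. The glutamine carrier Slc1a5 passed in none of the 6 comparisons (5.35 to 11.7 CPM over all libraries). Slc38a2, a neutral amino acid carrier, passed in the fit of all groups only with TPCA-1+TNFα over DMSO (0.51 ± 0.15, edgeR adjusted p = 0.0145). The replicate block and DESeq2 also called it for TMP195+TNFα over DMSO, and the block also called it higher for TPCA-1+TNFα over TNFα.

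The 12 cytosolic synthetase genes, whose enzymes charge tRNAs with amino acids, moved by small steps. Over DMSO, TMP195+TNFα was higher for all 12, with fold changes of 0.50 in Iars to 1.13 in Eprs. The background was 13.6% of all genes. In each of the 12 all TMP195+TNFα libraries lay above all DMSO libraries, as they did for 15% of all tested genes. Sars and Mars were not called without DMSO library 1 or 3 or TMP195+TNFα library 4, and Lars was not called without library 4 of all groups. TPCA-1+TNFα was higher than DMSO for 6 of the 12, against 14.8% of all genes, and TNFα alone for 3, against 10.9%. Over TNFα, 2 of the 12 passed with TMP195, against 2.95% of all genes, and 8 with the replicate block, against 6.91%, and the fold changes lay between 0.17 in Iars and 0.67 in Cars.

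Eprs, the bifunctional glutamyl-prolyl synthetase, had the largest step over DMSO. Eprs had 254, 261, 244 and 261 CPM in the TMP195+TNFα libraries, 182, 219, 157 and 204 in the TPCA-1+TNFα libraries, 196, 207, 207 and 176 in the TNFα libraries and 115, 131, 118 and 101 in the DMSO libraries. All TMP195+TNFα libraries exceeded all others, and all TNFα libraries exceeded DMSO. TNFα over DMSO was 0.76 ± 0.11 (edgeR adjusted p = 4.27e-05), TMP195+TNFα over TNFα was 0.38 ± 0.11 (edgeR adjusted p = 0.045), and TMP195+TNFα over TPCA-1+TNFα was 0.42 ± 0.11 (edgeR adjusted p = 0.00734).

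Tars, the threonyl synthetase, was higher with TMP195 than with TPCA-1. Tars had 58.5, 64.4, 60.7 and 63.9 CPM in the TMP195+TNFα libraries, 44.6, 41.5, 39.1 and 48.6 in the TPCA-1+TNFα libraries, 51.4, 54.5, 51.7 and 52.0 in the TNFα libraries and 34.9, 41.0, 36.4 and 37.6 in the DMSO libraries. TMP195+TNFα lay above TNFα, TNFα above TPCA-1+TNFα, and the groups did not overlap. TPCA-1+TNFα fell below TNFα (-0.27 ± 0.09, edgeR adjusted p = 0.0421), while TMP195+TNFα over TPCA-1+TNFα was 0.51 ± 0.09 (edgeR adjusted p = 0.000446) and TNFα over DMSO was 0.48 ± 0.09 (edgeR adjusted p = 0.000548). TMP195+TNFα over TNFα was 0.24 ± 0.09 (edgeR adjusted p = 0.126).

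Cars, the cysteinyl synthetase, was called in the comparison of TMP195+TNFα with TNFα but not in that of TNFα with DMSO. Cars had 43.8, 39.8, 44.6 and 52.1 CPM in the TMP195+TNFα libraries, 24.6, 40.0, 24.4 and 43.1 in the TPCA-1+TNFα libraries, 26.4, 25.7, 28.8 and 32.7 in the TNFα libraries and 25.6, 28.3, 23.6 and 27.8 in the DMSO libraries. TMP195+TNFα over TNFα was 0.67 ± 0.17 (edgeR adjusted p = 0.0232), with no overlap, and TNFα over DMSO was 0.11 ± 0.17 (edgeR adjusted p = 0.707). TPCA-1+TNFα libraries 2 and 4 were within the TMP195 range. Iars, the isoleucyl synthetase, was raised by TNFα (0.33 ± 0.11, edgeR adjusted p = 0.0325). Iars had 108, 111, 116 and 141 CPM in the TMP195+TNFα libraries, 86.1, 99.6, 103 and 102 in the TPCA-1+TNFα libraries, 95.0, 109.6, 108 and 113 in the TNFα libraries and 72.1, 93.2, 88.2 and 83.9 in the DMSO libraries.

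Xpot, which exports tRNA from the nucleus, passed in 1 comparison. Xpot had 114, 119, 116 and 123 CPM in the TMP195+TNFα libraries, 94.4, 85.1, 100.2 and 98.4 in the TPCA-1+TNFα libraries, 98.8, 109.8, 99.7 and 107 in the TNFα libraries and 101, 108, 97.3 and 106 in the DMSO libraries. All TMP195+TNFα libraries exceeded all TPCA-1+TNFα libraries (0.32 ± 0.08, edgeR adjusted p = 0.00673) and also all TNFα libraries (0.19 ± 0.08, edgeR adjusted p = 0.202). The other synthetase genes, Aars, Gars, Wars, Nars, Sars, Lars, Mars and Yars, passed against DMSO and not against TNFα in the fit of all groups. With the replicate block Aars, Gars, Wars, Nars, Mars and Yars also passed for TMP195+TNFα over TNFα, and Nars passed there with DESeq2. Their fold changes for TMP195+TNFα over TNFα were 0.20 in Lars to 0.55 in Mars, and for TMP195+TNFα over DMSO 0.52 in Lars to 0.69 in Aars. For TPCA-1+TNFα over TNFα the replicate block called Aars, Gars and Sars higher, against 15.8% of all genes.

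Synthetases outside the list were counted in the same way. Of 11 other cytosolic synthetases and complex subunits, 0 passed with TMP195 over TNFα, also with the replicate block, and 0 had an unadjusted p under 0.05; their median was 0.02, against 0.33 for the 13 synthetase and export genes of the list. Over DMSO, 4 of the 11 passed as higher with TMP195+TNFα, Rars, Kars, Aimp2 and Farsb, against 13.6% of all genes. Of 17 mitochondrial synthetases, 1 passed with TMP195 over TNFα, Iars2 (0.33 ± 0.09, edgeR adjusted p = 0.0438), and the same 1 passed over DMSO. Since the 12 synthetase genes of the list were chosen as ATF4 targets, this describes the lists and is not a test of a difference between them.

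**Figure D4:**
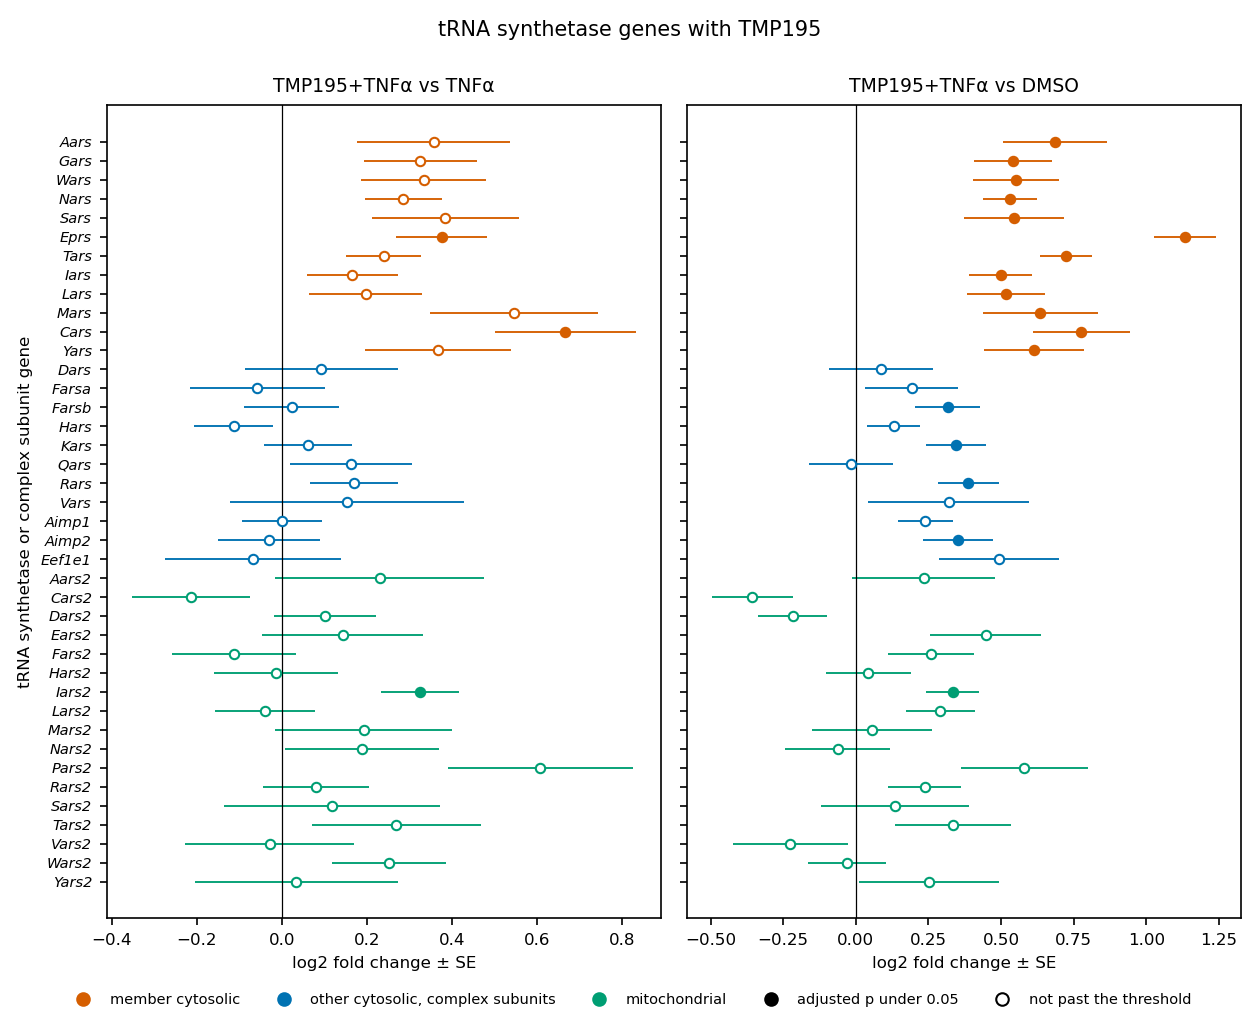
Log2 fold change ± SE (horizontal axis) of the 12 listed cytosolic synthetase genes, 11 other cytosolic synthetase or complex subunit genes and 17 mitochondrial synthetase genes for TMP195+TNFα over TNFα (left) and over DMSO (right); filled points passed at an edgeR adjusted p under 0.05. All 12 listed genes are filled on the right, against 4 of 11 and 1 of 17 in the other lists.

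The replicate libraries were not alike across these genes. TMP195+TNFα library 4 was the highest of its group for 33 of the 37 genes, and TNFα library 4 for 29. In the TPCA-1+TNFα group library 4 was highest for 19 and library 2 for 14, and in the DMSO group library 2 for 20 and library 4 for 15. Over all tested genes, TMP195+TNFα library 4 was the highest of its group for 36.0% and TNFα library 4 for 37.3%. The same share was 16.5% for TPCA-1+TNFα library 4, 34.2% for TPCA-1+TNFα library 2, 24.4% for DMSO library 2 and 35.1% for DMSO library 4. Set against the mean of the TNFα libraries, the median gene was higher by 0.26, 0.30, 0.26 and 0.78 (log2) in TMP195+TNFα libraries 1 to 4. In TPCA-1+TNFα libraries 1 to 4 the same median was -0.10, 0.49, -0.06 and 0.50, so that libraries 2 and 4 were high and libraries 1 and 3 were not. Over all tested genes this median was -0.01 to 0.01 in each of these 8 libraries. The number of genes above the TNFα mean was 31, 31, 34 and 37 of 37 with TMP195+TNFα and 16, 29, 14 and 32 with TPCA-1+TNFα, while 48.8% to 51.5% of all tested genes were above it in the 8 libraries. The coefficient of variation within a group, over these genes, had a median of 18.1% with TMP195+TNFα, 25.6% with TPCA-1+TNFα, 14.2% with TNFα and 15.1% with DMSO.

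**Figure D5:**
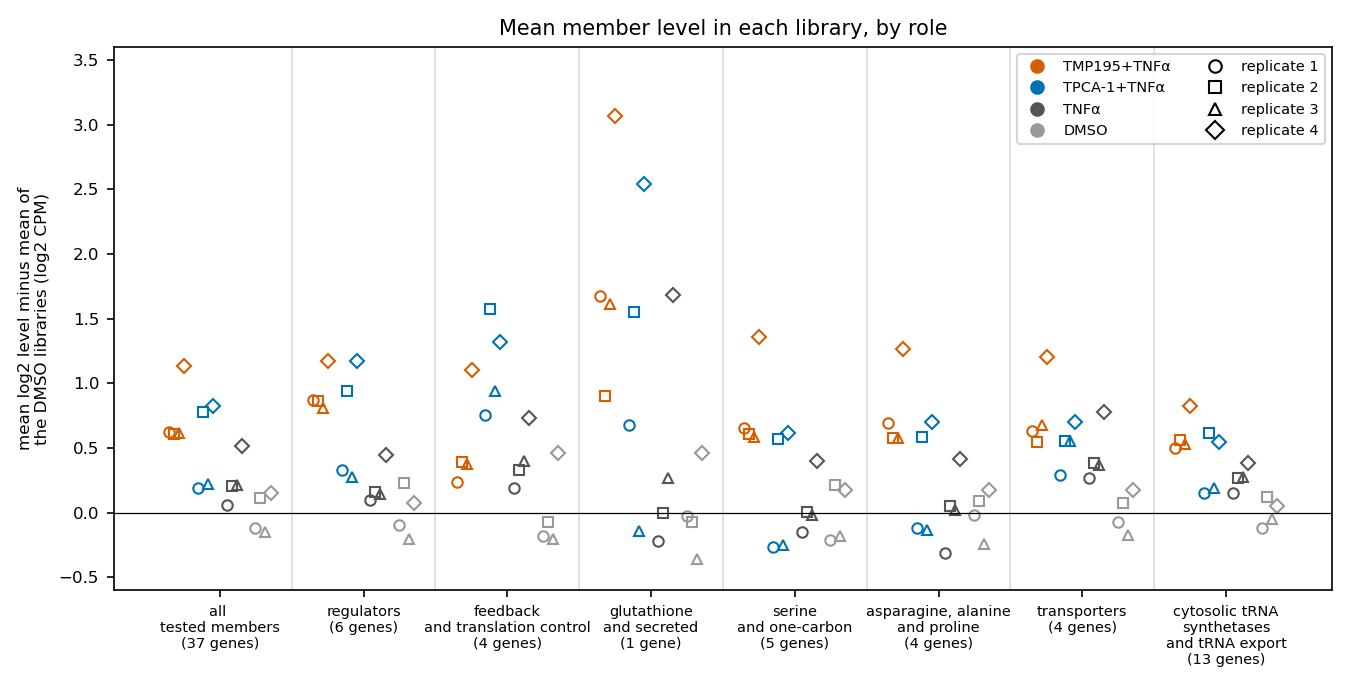
Mean log2 level of the genes in each library minus the mean of the DMSO libraries (vertical axis, log2 CPM), for all 37 tested genes and for each role; colour gives the group and symbol the replicate number. Over all 37 genes the TMP195+TNFα libraries lie at 0.61 to 1.13, the TPCA-1+TNFα libraries at 0.19 to 0.83, the TNFα libraries at 0.06 to 0.51 and the DMSO libraries at -0.15 to 0.15, and library 4 is the highest in each group.

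How far the calls rested on single libraries was examined by leaving each out. For TMP195+TNFα over TNFα, 3 of the 37 genes were called without TNFα library 1, without TNFα library 3 or without TMP195+TNFα library 4. The count was 4 without TNFα library 2, 6 without TMP195+TNFα library 2, 7 to 9 without any of the other 3 libraries of these groups, and 4 without library 4 of all groups, an alternative chosen after seeing the data. Trib3 and Gpt2 passed in all of these fits, with edgeR adjusted p at most 0.0449 and 0.0193. Asns passed with any 1 library left out and had 0.0613 without library 4 of all groups. Phgdh was not called without TNFα library 1, 2 or 3 or TMP195+TNFα library 4 (adjusted p up to 0.108), and Psat1 was not called without these or TMP195+TNFα library 2 (up to 0.1004). Slc3a2 was lost without the same libraries as Psat1 (up to 0.0771), and Mthfd2 without TNFα library 1 or 3 or TMP195+TNFα library 4 (up to 0.0705). Cars was lost without TNFα library 1, 2 or 3 or TMP195+TNFα library 3 or 4 (up to 0.0728). Ddit3 was lost without any library of these groups other than TMP195+TNFα library 1 (up to 0.0909), and Eprs without any of the 8 (up to 0.196).

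For TPCA-1+TNFα over TNFα, the count of higher genes was 2 without TNFα library 1, 2 or 3 and without TPCA-1+TNFα library 2 or 4. It was 7 without TNFα library 4, TPCA-1+TNFα library 3 or library 4 of all groups, and 9 without TPCA-1+TNFα library 1. Atf3 and Ddit4 passed in all of these fits, with edgeR adjusted p at most 0.00317 and 0.00801. Trib3 and Ppp1r15a were lost without TNFα library 1, 2 or 3 or TPCA-1+TNFα library 2 or 4 (adjusted p up to 0.203 and 0.170). Tars was lost without TNFα library 1, 2 or 3 or TPCA-1+TNFα library 2 or 3 (up to 0.108).

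For TMP195+TNFα over TPCA-1+TNFα, Cebpg, Psat1, Mthfd2, Slc3a2, Eprs, Tars, Xpot and Ddit4 passed with any library of these groups left out and without library 4 of all groups, with edgeR adjusted p at most 0.0395. Phgdh was lost without TMP195+TNFα library 1 or 4 or TPCA-1+TNFα library 1 or 3 (up to 0.122). Asns was lost without TPCA-1+TNFα library 1 or 3 or TMP195+TNFα library 4 (up to 0.0827), and Gpt2 without TPCA-1+TNFα library 3 or TMP195+TNFα library 4 (up to 0.0615). Atf3 was lost without TMP195+TNFα library 1 or TPCA-1+TNFα library 2 or 4, or without library 4 of all groups (up to 0.0900). The count of lower genes was 1 without each of those 3 single libraries and 4 without TMP195+TNFα library 4. For TPCA-1+TNFα over DMSO, 11 genes were called without TPCA-1+TNFα library 4, against 18 with all libraries. For TNFα over DMSO, Nupr1, Ppp1r15a, Mthfd2, Slc3a2, Eprs and Tars passed in all of these fits (adjusted p at most 0.0111). Atf4 was lost without DMSO library 1 or 3 or TNFα library 2 or 4 (up to 0.1298), Eif4ebp1 without DMSO library 1, 2 or 3 or TNFα library 3 or 4 (up to 0.152), and Iars without DMSO library 1, 3 or 4 or TNFα library 2, 3 or 4, or library 4 of all groups (up to 0.121).

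Genes upstream of ATF4 and other genes of the response were read from lists set by their known roles. Of 17 genes for eIF2 kinases and the eIF2 machinery, 0 passed with TMP195 over TNFα and 3 had an unadjusted p under 0.05. With TPCA-1 over TNFα 1 rose, Eif2ak3 (0.38 ± 0.11, edgeR adjusted p = 0.0173), which encodes the kinase PERK, and 1 fell, Eif2ak2 (-1.76 ± 0.16, edgeR adjusted p = 8.72e-07). Of all genes, 9.67% were higher and 9.72% lower. Eif2ak2 encodes PKR, a kinase activated by double-stranded RNA and induced by interferon. Its level was 32.2, 26.5, 26.5 and 27.8 CPM with TPCA-1+TNFα, against 111, 93.2, 98.0 and 80.6 CPM with TNFα. TNFα over DMSO raised 2 of the 17, Eif2b3 (0.60 ± 0.15, edgeR adjusted p = 0.00672) and Eif2b1 (0.32 ± 0.11, edgeR adjusted p = 0.0373), against 10.9% of all genes.

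Of 26 other genes known as ATF4 or CHOP targets, 22 could be tested. Against 2.95% and 3% of all genes, 4 of the 22 rose with TMP195 over TNFα and 0 fell. They were Vegfa (1.44 ± 0.13, edgeR adjusted p = 3.34e-05), a growth factor for vessels, Gdf15 (0.84 ± 0.19, edgeR adjusted p = 0.0145), a stress-induced cytokine, Sqstm1 (0.77 ± 0.22, edgeR adjusted p = 0.0445), the autophagy receptor p62, and Pck2 (1.20 ± 0.34, edgeR adjusted p = 0.0479), the mitochondrial phosphoenolpyruvate carboxykinase. Vegfa had 29.8, 24.7, 29.5 and 28.9 CPM with TMP195+TNFα, against 9.89, 9.62, 11.9 and 10.2 CPM with TNFα, and the groups did not overlap. With TPCA-1 over TNFα, 5 of the 22 rose and 4 fell, against 9.67% and 9.72% of all genes. Gdf15 (1.15 ± 0.19, edgeR adjusted p = 0.000427), Vegfa (0.75 ± 0.13, edgeR adjusted p = 0.000655) and the AP-1 family member Jdp2 (0.91 ± 0.19, edgeR adjusted p = 0.00291) were among the 5, and the mitochondrial folate enzyme Mthfd1l (-0.80 ± 0.17, edgeR adjusted p = 0.00273) among the 4. TNFα over DMSO raised 9 of the 22, against 10.9% of all genes, and lowered 1, against 12.4%. The 1 lowered was Vegfa (-0.39 ± 0.13, edgeR adjusted p = 0.0397), named after its value was seen. The smallest adjusted p belonged to Slc7a11 (4.29 ± 0.26, edgeR adjusted p = 6.03e-09), the cystine transporter that shares its heavy chain Slc3a2 with Slc7a5.

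Mthfd2 was set beside other folate and one-carbon genes. Of 14 tested, 0 rose and 1 fell with TMP195 over TNFα, where 2.95% of all genes were higher and 3% lower. It was Mtr (-0.70 ± 0.11, edgeR adjusted p = 0.00143), the methionine synthase, the only 1 with an unadjusted p under 0.05. TNFα over DMSO raised 1, Mthfd1l (0.69 ± 0.17, edgeR adjusted p = 0.00486), and lowered 4, among them Mtr (-0.58 ± 0.11, edgeR adjusted p = 0.000625) and Tyms (-0.77 ± 0.17, edgeR adjusted p = 0.00283), the thymidylate synthase, which is also known to vary with the cell cycle. Of all genes, 10.9% were higher and 12.4% lower. Of 17 genes of mTORC1 and amino acid sensing, 0 rose and 1 fell with TMP195 over TNFα, Sesn1 (-0.67 ± 0.13, edgeR adjusted p = 0.00506), a relative of Sesn2, and 3 had an unadjusted p under 0.05. With TPCA-1 over TNFα 6 of the 17 rose and 1 fell, against 9.67% and 9.72% of all genes. Castor2 (1.87 ± 0.20, edgeR adjusted p = 4.13e-06), a relative of the arginine sensor Castor1, Flcn (0.67 ± 0.12, edgeR adjusted p = 0.000766), the folliculin gene, and Rraga (0.37 ± 0.09, edgeR adjusted p = 0.00616), a Rag GTPase, rose, and Ddit4l (-1.70 ± 0.24, edgeR adjusted p = 7.28e-05), a relative of Ddit4, fell.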

How the data were processed

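RNA-seq was done on total RNA of 16 libraries in 4 groups of 4. The authors aligned reads with STAR 2.6.1d, per the submitters' processing notes, which name GRCm38 and mm10; the annotation release is not given in the sources used here. The deposited files hold raw read counts per gene in 3 strand columns. The reverse-strand column was used, since the opposite strand held 3.19% to 3.72% of stranded reads; the 4 summary lines without a gene were left out. Of 54838 gene identifiers, 54809 were named through GENCODE M21.

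Counts were tested in R 4.3.3 with edgeR 4.0.16 (TMM scaling, filterByExpr, quasi-likelihood test, all 16 libraries in 1 model), adjusted by Benjamini-Hochberg over 12612 genes with a threshold of 0.05. The SE is the fold change divided by the square root of the F statistic. Levels of single genes are TMM-scaled CPM, and the marker sums are CPM without TMM scaling. A count of 3 corresponds to 0.0949 to 0.401 CPM without this scaling, which covers counting error only. The fits were tested on simulated data.

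The members and lists were chosen with earlier results of these data known. All 38 genes are named; per-library levels are given for those that passed in 1 of the first 4 comparisons, and at most 4 genes by adjusted p from each other list. Same-numbered libraries correlated in their deviations from the group means by 0.27 to 0.68 among TMP195+TNFα, TNFα and DMSO, all above 0.1. Against TPCA-1+TNFα the correlations ran from -0.04 to 0.51, not all above 0.1. The block fit was 1 model of all 16 libraries, so the TPCA-1+TNFα libraries were blocked by number in it too. All p-values given with the block come from that model. Replicates differed by more than sampling noise (chi-square per gene 14.0 to 80.3 over 24 pairs). Alternatives were RLE factors, DESeq2 1.42.0, no low-count filter, unstranded counts, the 2 groups alone, the block and leaving out libraries. A few items are not reported here.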

Additional observations from a re-analysis of the deposited data

Results flagged for a closer look

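Within groups of 4 libraries, 16 of 152 sets of gene and group had a highest or lowest library whose gap to the next one took up most of the group's range. Chance flags about 1 in 20 such groups, and all these genes share the same libraries. Most concerned library 4 with TMP195+TNFα, which stood above the other 3 for 9 genes. Its levels were 19.0 CPM for Trib3, where the others reached 8.46, and 122 CPM for Mthfd2, where they reached 91.4. It held 33.3 CPM for Sesn2, 39.4 for Aldh18a1, 47.3 for Slc7a5 and 7.31 for Psph. Wars was at 102 CPM, Mars at 25.8 and Pycr1 at 2.93 CPM in the same library.

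TNFα library 4 stood above the other 3 for 5 genes. Sesn2 was at 31.0 CPM there, Chac1 at 2.85, Phgdh at 1.64 and Aars at 105 CPM. The level of Stc2, 0.0483 CPM, was a single read. In the TPCA-1+TNFα group, library 4 had 37.1 CPM of Nupr1, against 22.7 to 24.5 in the others, and library 3 had 16.9 CPM of Cebpg, against 20.7 to 21.3 in the others.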

How the results depend on the processing

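With the number as a block, 22 genes were higher with TMP195+TNFα over TNFα (10 without), 11 with TPCA-1+TNFα over TNFα (4 without), and 16 higher and 4 lower with TMP195+TNFα over TPCA-1+TNFα (10 and 2 without); 1 was lower with TNFα and 1 with TPCA-1+TNFα over DMSO (0 without). The block called 1699 of all genes for TMP195+TNFα over TNFα and 3835 for TPCA-1+TNFα over TNFα, against 750 and 2446. With the block, 15.8% of all genes were higher with TPCA-1+TNFα over TNFα, beside the 11 of 37. The genes added there were Ddit3, Sesn2, Shmt2, Slc38a2, Aars, Gars and Sars. For TMP195+TNFα over TPCA-1+TNFα, 18.6% of all genes were higher and 18.3% lower, beside the 16 and 4 of 37. Over DMSO, 16.9% of all genes were lower with TNFα and 20.3% with TPCA-1+TNFα, beside 1 of 37 in each. Same-numbered TPCA-1+TNFα libraries correlated with those of the other groups by 0.37 to 0.51 for number 1 and -0.04 to 0.02 for number 2. The range was 0.14 to 0.29 for number 3 and 0.09 to 0.16 for number 4. Not all were above 0.1, so the number does not clearly pair these libraries. TPCA-1+TNFα library 2 correlated by 0.26 to 0.36 with library 4 of the other groups, more than with their library 2. The block fit nevertheless held all 16 libraries, with the TPCA-1+TNFα libraries blocked by number as well. DESeq2 called 1162 genes for TMP195+TNFα over TNFα. With only the 2 groups fitted, TPCA-1+TNFα over TNFα gave 2 members higher, 0 lower and 1551 of all genes, TMP195+TNFα over TPCA-1+TNFα gave 1 lower, and TNFα over DMSO gave 1 lower. With no low-count filter, 1 was lower with TNFα over DMSO and 0 with TPCA-1+TNFα over TNFα. Leaving out 1 library gave ranges of 3 to 10 higher for TMP195+TNFα over TNFα (366 to 1041 of all genes, the lowest without library 4 of all groups), 2 to 9 higher and 0 to 1 lower for TPCA-1+TNFα over TNFα, 1 to 4 lower for TMP195+TNFα over TPCA-1+TNFα, 11 to 24 higher and 0 to 1 lower for TPCA-1+TNFα over DMSO, and 0 to 1 lower for TNFα over DMSO, the last without TPCA-1+TNFα library 2. All-gene counts for TMP195+TNFα over TNFα were 496 without TNFα library 1, 485 without TNFα library 4 and 446 without TMP195+TNFα library 3. Without library 4 of all groups, chosen after seeing the data, 4 genes were higher with TMP195+TNFα and 7 with TPCA-1+TNFα over TNFα, and 1 was lower with TPCA-1+TNFα over DMSO. The cause of these shifts was not tested. No value changed sign among called genes. Depth limits Stc2, Ddit4, Phgdh, Chac1 and Pycr1.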
